A study of Mus musculus with 57 samples.

Results

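NANOG regions that GATA6 did not reach were selected on measured peak lists from mouse embryonic stem cells. A NANOG 0 h region was a stretch of merged overlapping peaks holding a peak of both NANOG lists from uninduced cells, and 7515 such regions were found. Of these, 860 (11.4%) overlapped no peak of either GATA6 list made 2 h after induction, by as little as 1 bp, and are called unreached. A further 880 overlapped a peak of 1 GATA6 2 h list, and 5775 overlapped a peak of both lists and are called reached. The number of unreached regions depended on the lists that chose them. Among the same 7515 regions it was 1581 without GATA6 2 h replicate 1 and 1019 without GATA6 2 h replicate 2. It was 4086 without NANOG 0 h replicate 1 and 2377 without NANOG 0 h replicate 2. In those 2 cases regions came from the single NANOG list left, of 16180 and 10693 peaks, respectively. A peak of both lists was then not required, so these counts are not parts of the 7515.

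The cells were KH2 embryonic stem cells (strain label C57BL/6) with a TRE:GATA6-DSREd2 transgene, which makes GATA6 when doxycycline is given. Every sample used here carries this transgene, the uninduced controls included, so there is no transgene-free group. Cells at 0 h, without doxycycline, grew in 2i medium with LIF, whereas induced cells were in serum medium with LIF and doxycycline for at most 12 h and without doxycycline thereafter. What differs between uninduced and induced cells therefore cannot be told apart from the change of medium. CUT&RUN, in which an antibody guides a nuclease to a protein on chromatin and the freed fragments are sequenced, was run for NANOG and SOX2 (0, 2, 4 and 8 h), GATA6 (0 and 2 h, and lists named for 4, 8 and 48 h) and GATA4 and SOX17 (24 h), with 2 peak lists a group and 30 in all. The GATA6 lists named for 4, 8 and 48 h stand under records of 8, 48 and 4 h, respectively. Times below are those of the list names.

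NANOG and SOX2 are transcription factors of the pluripotent epiblast, where they occupy enhancers of genes that keep the naive state. GATA6 drives the alternative fate of the inner cell mass, the primitive endoderm, and can bind nucleosomal DNA at sites with a GATA core. SOX17 and GATA4 follow GATA6 in the primitive endoderm, and SOX17 belongs to the same HMG-box family as SOX2.

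DNA sequences around the NANOG summits of 9 unreached regions are printed to show what letters the sites offer to these factors. Each is the plus strand of GRCm38 (mm10) from 100 bp before to 100 bp after the summit of the NANOG 0 h peak with the highest −log10 q, taken from the RefSeq genome. Capitals mark matches on either strand to GATA letters (AGATAA as well as AGATAG, and likewise TGATAA as well as TGATAG), to SOX letters (ACAAAG as well as ACAATG) or to NANOG homeodomain letters (TAATGG as well as TAATTG). The first 3 had the highest mean NANOG 0 h fold, the next was held by SOX17 at 24 h, Dram1 was the one region held by both GATA6 48 h lists, and the last 4 lie near genes of the pluripotency and primitive endoderm lists.
Naa35, chr13:59592089-59592289: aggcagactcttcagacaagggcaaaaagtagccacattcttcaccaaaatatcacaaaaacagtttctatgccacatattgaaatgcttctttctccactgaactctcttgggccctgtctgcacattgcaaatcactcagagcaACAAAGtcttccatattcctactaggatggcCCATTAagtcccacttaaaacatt
Irf5, chr6:29545735-29545935: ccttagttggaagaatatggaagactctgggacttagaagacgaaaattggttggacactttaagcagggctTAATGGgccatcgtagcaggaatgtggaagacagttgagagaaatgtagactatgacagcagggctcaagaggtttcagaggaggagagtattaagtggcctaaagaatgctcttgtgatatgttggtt
Serinc5, chr13:92687310-92687510: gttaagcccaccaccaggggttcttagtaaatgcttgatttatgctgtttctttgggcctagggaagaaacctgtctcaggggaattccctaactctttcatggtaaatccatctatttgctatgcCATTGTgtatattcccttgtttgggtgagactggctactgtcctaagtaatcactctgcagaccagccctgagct
Mpped2, chr2:106750930-106751130: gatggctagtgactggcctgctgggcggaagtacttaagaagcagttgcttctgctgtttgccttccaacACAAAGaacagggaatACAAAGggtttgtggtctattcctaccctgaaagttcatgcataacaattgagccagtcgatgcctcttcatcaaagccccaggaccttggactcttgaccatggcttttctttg
Dram1, chr10:88350232-88350432: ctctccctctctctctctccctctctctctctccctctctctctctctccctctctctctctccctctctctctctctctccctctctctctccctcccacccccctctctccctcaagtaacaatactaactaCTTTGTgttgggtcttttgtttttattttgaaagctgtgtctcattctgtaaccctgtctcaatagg
Nr5a2, chr1:137003064-137003264: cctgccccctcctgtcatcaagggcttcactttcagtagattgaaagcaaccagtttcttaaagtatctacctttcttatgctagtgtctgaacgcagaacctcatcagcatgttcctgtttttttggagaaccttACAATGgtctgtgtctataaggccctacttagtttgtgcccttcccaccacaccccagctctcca
Nr5a2, chr1:136980532-136980732: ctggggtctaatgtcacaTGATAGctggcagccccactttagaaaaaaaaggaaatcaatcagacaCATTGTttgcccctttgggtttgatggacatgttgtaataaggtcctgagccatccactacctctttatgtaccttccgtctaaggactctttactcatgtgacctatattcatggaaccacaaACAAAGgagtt
Pdgfra, chr5:75205859-75206059: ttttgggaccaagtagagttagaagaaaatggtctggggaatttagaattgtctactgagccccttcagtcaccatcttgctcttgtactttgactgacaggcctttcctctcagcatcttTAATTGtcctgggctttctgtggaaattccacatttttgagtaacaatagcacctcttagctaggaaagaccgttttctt
Hnf4a, chr2:163511109-163511309: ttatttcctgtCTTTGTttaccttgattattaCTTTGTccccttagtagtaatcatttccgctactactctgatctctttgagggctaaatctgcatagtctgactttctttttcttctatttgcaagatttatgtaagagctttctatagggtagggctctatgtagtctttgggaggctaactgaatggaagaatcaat
Of these 9 windows, 1 held GATA letters, the second near Nr5a2. SOX letters stood in 7 of them and homeodomain letters in 3. The Dram1 window was 83.1% repeat-masked, with a long run of c and t, and its SOX match lay to the right of that run.

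Across all regions, GATA letters within 100 bp of the summit were found in 182 of 860 unreached regions (21.2%, 95% Wilson interval 18.6 to 24.0). They were found in 22.2% (19.5 to 25.0) of regions reached in 1 list, in 35.9% (34.7 to 37.2) of reached regions and in 32.6% of all 7515 windows of the same length. Over whole regions the shares were 38.1% of unreached and 65.6% of reached regions, where reached regions were also wider (median 494 bp against 395 bp). Homeodomain letters went the other way, with 30.6% (27.6 to 33.7) of unreached and 20.7% (19.7 to 21.8) of reached windows, against 22.4% of all windows. SOX letters were found in 54.7% (51.3 to 58.0) of unreached, 50.2% (48.9 to 51.5) of reached and 51.0% of all windows, and these intervals overlap slightly. The SOX-OCT composite (TTGTNATGC) was in 4.65% of unreached and 5.89% of reached windows and the octamer (ATGCAAAT) in 5.12% and 5.06%, with overlapping intervals. These 2 motifs were in 5.75% and 5.23% of all windows, and letters of the composite can overlap those of the octamer. Matches for KLF factors (GGGNGTGG), AP-1 (TGANTCA) and TEAD (GGAATG) were less frequent at unreached sites, at 7.09%, 5.23% and 13.0%, than at reached sites, at 12.2%, 10.1% and 18.2% (all windows 11.4%, 9.05% and 17.4%). Letters for orphan nuclear receptors (TCAAGGNCA) were in 3.72% and 3.97% (all windows 3.85%). Those for ETS factors (CCGGAAGT), NRF1 (GCGCATGC) and YY1 (AAGATGGC) were in 1, 1 and 6 of the 860 windows (all windows 0.319%, 0.200% and 0.519%), and those for CTCF and for CREB (TGACGTCA) in 0 (all windows 0.0931% and 0.120%). These are descriptions of static sequence with no test, and unreached windows also held less GC (median 42.3% against 44.8%).

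**Figure D1:**
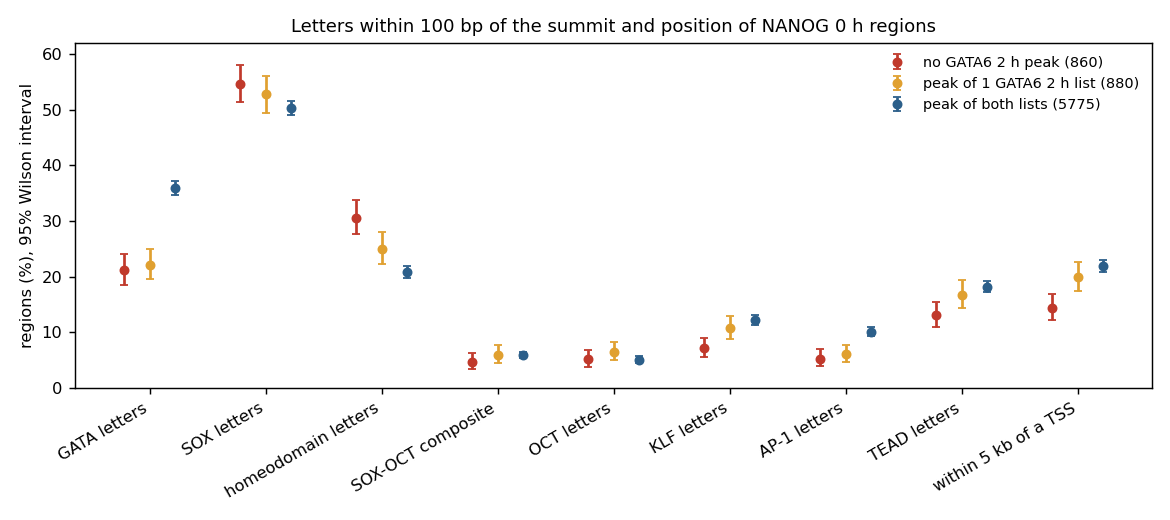
Percent of regions with each motif within 100 bp of the summit, and within 5 kb of a transcription start site, for the 3 region classes. Points are shares and bars 95% Wilson intervals. GATA letters stand at 21.2% of unreached and 35.9% of reached regions, and homeodomain letters at 30.6% and 20.7%.

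Unreached regions lay near promoters less often than reached regions. Of them, 22 (2.56%, 1.70 to 3.84) had the summit within 1 kb of a protein-coding transcription start site (TSS), against 8.64% (7.94 to 9.39) of reached regions. Within 5 kb were 123 (14.3%, 12.1 to 16.8), against 21.9% (20.9 to 23.0). Regions reached in 1 list stood at 4.66% and 19.9%, and all 7515 regions at 7.48% and 20.8%. The unreached share within 5 kb moved to 17.5% and 18.7% when regions were chosen without NANOG 0 h replicate 1 or replicate 2. Beyond 1 kb, 383 lay in introns (44.5%, 41.2 to 47.9), 16 in exons and 439 between genes (51.0%), where the reached regions had 36.4% (35.2 to 37.7) in introns and 53.4% between genes. A CpG-rich window (observed over expected of at least 0.6 and GC of at least 50%) was found at 2 unreached regions, 0.233% against 3.06% of the reached. More than 50% of the window was repeat-masked in 18.3% (15.8 to 21.0) of unreached and 23.9% (22.8 to 25.0) of reached regions. The share of NANOG 0 h regions that were unreached ran from 8.01% on chromosome 17 to 14.5% on chromosome 7 among the nuclear chromosomes, with overlapping intervals. The nearest other NANOG 0 h region lay at a median of 77777.5 bp from an unreached and 44328 bp from a reached region.

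Peak lists differed in length, and this bears on every share below. They held 2255 to 52285 peaks for NANOG, 11540 to 52574 for SOX2, 86 to 79358 for GATA6, 4006 to 8427 for GATA4 and 27328 to 41979 for SOX17. The peak lists carry no read counts, so the depth of each list was not used here. A region counts as held by a list when a peak of that list overlaps it by at least 1 bp, and a region without a peak can still carry signal under the calling threshold. Wilson intervals cover counting error over regions only. Each group had 2 lists, from replicate experiments that the study describes as performed independently. The labels do not say whether these were separate cultures, and p-values are over lists and not over regions. Tests of the difference between region classes pool lists of different times or factors, all scored on the same regions. Their p-value is the smallest possible whenever all differences share a sign, so it does not measure spread between replicates. The SDs of those differences also take in differences between times or factors. Fold is enrichment over local background at a peak summit.

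Distances to GATA6 peaks are given as a description, with no comparison set. The nearest GATA6 2 h peak lay at a median of 8377 bp (quartiles 2139 and 22163 bp) from an unreached region, within 1 kb of 139 and within 100 bp of 27. Just inside the limit, those 27 held a NANOG 4 h peak in 0 and 1 regions of the respective lists, and just outside it, the 58 other regions whose largest overlap was at most 100 bp held 0 and 0. SOX2 0 h peaks were held by 17 and 19 of the 27 and by 35 and 36 of the 58. GATA6 4 h peaks were held by 2 and 6 of the 27 and by 8 and 5 of the 58. These values are a description of regions picked by the rule.

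NANOG enrichment at 0 h, which chose the regions, was lower at unreached sites. The median of the mean fold over local background was 6.17 (quartiles 5.16 and 7.57) for unreached, 6.55 for regions reached in 1 list and 7.30 for reached regions. The strongest unreached region had a fold of 17.9 and 23.0 in the respective NANOG 0 h lists. It lies at chr13:59591939-59592856 in an intron of Naa35, which encodes a subunit of an N-terminal acetyltransferase, 3170 bp from the nearest TSS. There the NANOG fold was 8.64 and 9.90 at 2 h and no peak was listed at 4 or 8 h. SOX2 stood at 12.7 and 12.1 at 0 h and at 8.27 in 1 of the 2 h lists. The next, with NANOG at 17.02 and 18.9, lies at chr6:29545346-29546471 in an intron of Tnpo3, 4689 bp from the start of Irf5, an interferon regulatory factor. NANOG persisted there at 5.21 and 10.4 at 2 h and at 7.22 in 1 of the 4 h lists, while SOX2 (7.52 and 5.37 at 0 h) was not listed after 0 h. The region at chr13:92687198-92687765, in an intron of the membrane protein gene Serinc5, kept SOX2 in all 6 lists from 0 to 4 h, at folds of 14.8 and 19.0, then 9.41 and 14.2, then 12.5 and 9.22. Other regions among the strongest lay nearest to Fgfr1, Gtdc1, Sema6a and Tnks. These 7 named regions had a peak of both SOX2 0 h lists and of both NANOG 2 h lists, and none of the 7 had a peak of any SOX2 8 h or NANOG 8 h list.

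NANOG was listed at few unreached sites by 4 h. The NANOG 2 h lists held 513 (59.7%) and 253 (29.4%) of the 860 regions, the 4 h lists 20 (2.33%) and 29 (3.37%), and the 8 h lists 2 (0.233%) and 3 (0.349%). The longer of the 2 h lists (52285 against 26742 peaks) held more of them, and no 4 h or 8 h list came near either of them. The share fell by 22.1 percentage points per time point (exact permutation test over 6 lists, p = 0.0222, the smallest it can give, adjusted p = 0.0438). The call does not hold without either 4 h list (exact permutation p = 0.0667 each) or either 8 h list (exact permutation p = 0.133 each). The slope was -12.8 points without NANOG 2 h replicate 1, and -10.00 and -10.3 when regions were chosen without NANOG 0 h replicate 1 or replicate 2. Peaks of both lists were present at 216 unreached regions at 2 h (25.1%), 4 at 4 h (0.465%) and 1 at 8 h (0.116%), beside 75.9%, 35.3% and 3.51% of all NANOG 0 h regions. In 304 unreached regions (35.3%) no NANOG peak was listed after 0 h, and in 508 (59.1%) the last one was at 2 h. For regions reached in 1 list these shares were 12.2% and 66.9%, and for reached regions 1.71% and 28.4%.

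The time course depended on how many peaks a list held. When every NANOG list from 2 to 8 h was reduced to its 2255 peaks of highest −log10 q, the length of the shortest, the shares were 0.233% and 0% at 2 h, 0% and 0% at 4 h, and 0.116% and 0.349% at 8 h, and the slope turned to 0.06 percentage points (exact permutation p = 0.60). Lists from 0 h, reduced in the same way, held 12.6% and 13.1% of unreached regions. With the strongest 10693 peaks of each list from 0 to 4 h, the shares were 100% and 80.5% at 0 h, 8.60% and 9.42% at 2 h, and 1.74% and 2.79% at 4 h. Under that limit reached regions went from 100% and 89.5% to 70.9% and 69.9% and then to 51.7% and 52.1%. The 0 h lists chose the regions, so their shares are a reference and not a result.

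SOX2, which the rule did not use, followed the same order. Its 0 h lists held 535 (62.2%) and 559 (65.0%) unreached regions, its 2 h lists 153 (17.8%) and 323 (37.6%), its 4 h lists 151 (17.6%) and 52 (6.05%), and its 8 h lists 9 (1.05%) and 5 (0.581%). Both 0 h values lay above all later ones and both 8 h values below all earlier ones, whereas the 2 h and 4 h values nearly met, at 153 and 151 regions. The time points differed (F = 22.6, exact permutation test over 8 lists, p = 0.00952, adjusted p = 0.0333). Among the 6 lists of 2 to 8 h alone, an alternative chosen after seeing the data, the exact permutation p was 0.0667, and without SOX2 8 h replicate 1 or replicate 2 it was 0.0571, so the call does not hold there. With all SOX2 lists at 11540 peaks, the length of the shortest, replicates came closer together: 36.4% and 40.5% at 0 h, 7.33% and 5.81% at 2 h, 1.40% and 2.21% at 4 h, and 0.930% and 0.581% at 8 h. Both 0 h lists held 451 unreached regions (52.4%), both 2 h lists 111 (12.9%), both 4 h lists 38 (4.42%) and both 8 h lists 2 (0.233%), beside 79.2%, 65.5%, 56% and 25.3% of all NANOG 0 h regions.

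**Figure D2:**
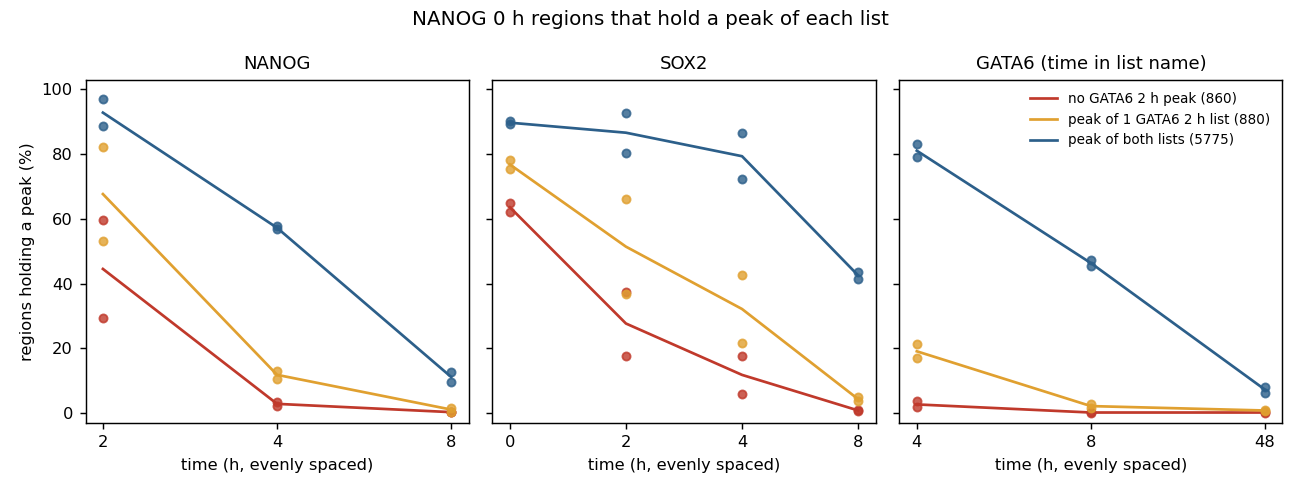
Percent of NANOG 0 h regions that hold a peak of each NANOG, SOX2 and GATA6 list, by time in h. Points are single lists (2 a time point), lines join the means, and colours give the 3 region classes. Unreached regions (red) fall to at most 3.37% for NANOG at 4 h, while reached regions (blue) stand above 56% there.

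**Figure D3:**
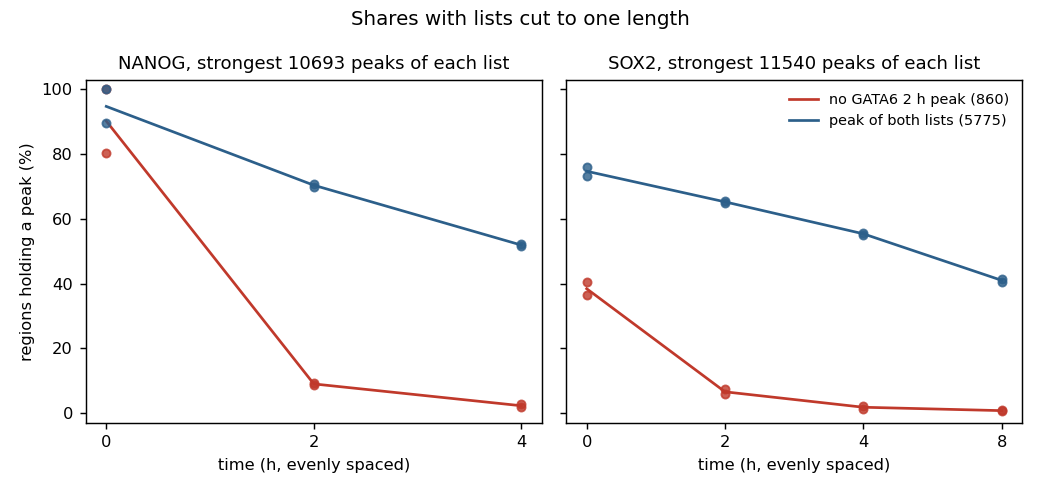
The same shares when each list is reduced to its strongest peaks, 10693 for NANOG (0 to 4 h) and 11540 for SOX2 (0 to 8 h). At 2 h unreached regions stand at 8.60% and 9.42% for NANOG and 7.33% and 5.81% for SOX2, and reached regions at 69.9% or more for NANOG and near 65% for SOX2.

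Unreached regions held both factors less often than reached regions in the same lists. The comparison is of the share held in each list and not of the loss over time. For NANOG, the reached regions were held at 97.0% and 88.6% at 2 h, 57.8% and 56.7% at 4 h, and 12.7% and 9.59% at 8 h. The unreached share was lower in 6 of 6 lists, by a mean of 37.9 percentage points (SD 22.2, a difference of -37.9; exact sign-flip permutation test over lists, p = 0.0313, the smallest it can give, adjusted p = 0.0438). For SOX2, the reached regions were held at 89.2% and 90.2% at 0 h, 80.4% and 92.8% at 2 h, 86.5% and 72.2% at 4 h, and 43.5% and 41.6% at 8 h. Here the difference was -48.6 points (SD 17.2), lower in 8 of 8 lists (exact sign-flip permutation p = 0.00781, adjusted p = 0.0333). It was already -27.0 and -25.2 points at 0 h, before GATA6 was made, and -69.0 and -66.2 points at 4 h. For later GATA6 the difference was -43.9 points (SD 32.0), lower in 6 of 6 lists (exact sign-flip permutation p = 0.0313, adjusted p = 0.0438). At 4 h, 79.1% and 83.1% of reached regions were held. The classes were chosen on 2 h peaks of this same factor. A lower later GATA6 share was thus largely set by that choice, and no conclusion is drawn from its p-value. For GATA4 and SOX17 the difference was -23.2 points (SD 17.4), lower in 4 of 4 lists. With 4 lists the exact permutation test cannot go below p = 0.125. Without any 1 of their lists the NANOG and GATA6 differences remained negative, but 5 lists cannot go below an exact permutation p of 0.0625.

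The 880 regions with a peak of only 1 GATA6 2 h list lay between both classes. Their median highest GATA6 2 h fold was 4.89, against 12.4 for reached regions. Unreached regions stood below them in every list, with mean differences of -10.96 points for NANOG, -15.2 points for SOX2, -6.34 for later GATA6 and -4.19 for GATA4 and SOX17. Some of these gaps rest on very few regions. They were -0.106 points in NANOG 8 h replicate 2, and -0.106 and -0.222 points in the GATA4 lists. GATA4 held 3 and 2 unreached regions against 4 and 4 of the 880. The SOX17 lists stood at -7.62 and -8.80 points.

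Differences in NANOG strength at 0 h moved with the classes. Averaged over 5 bins of equal region number by NANOG 0 h fold, the differences from reached regions were -34.4 points for NANOG, -45.3 for SOX2, -43.9 for later GATA6 and -22.8 for GATA4 and SOX17. Over 5 bins by region width, chosen after seeing the data, they were -35.6, -45.9, -43.9 and -23.4 points. Among regions with SOX2 in both 0 h lists, also chosen after seeing the data, the difference was -37.2 points for NANOG, -53.1 for SOX2 at 2 to 8 h and -23.7 for GATA4 and SOX17. In the bin of strongest NANOG, the 47 unreached regions were held by the NANOG 2 h lists at 91.5% and 70.2%, and by the 4 h lists at 8.51% and 8.51%, where 1280 reached regions stood at 80.9% and 80.6% at 4 h.

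**Figure D4:**
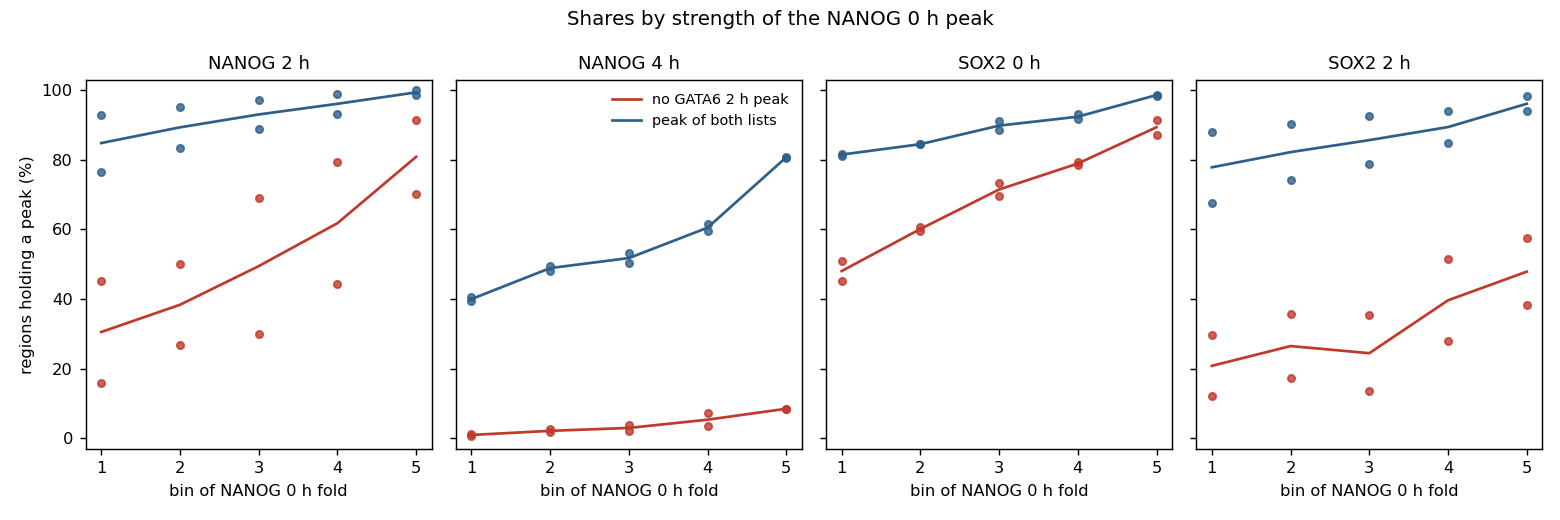
Percent of unreached and reached regions that hold a peak, in 5 bins of equal region number by mean NANOG 0 h fold (1 lowest, 5 highest). Points are single lists and lines their means. Unreached regions stand below reached ones in every bin shown, and the bins hold 257 (lowest) to 47 (highest) unreached regions.

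Within the unreached set, regions with stronger NANOG at 0 h kept peaks more often. In the top tercile by fold (above 6.94), the NANOG 2 h lists held 79.1% and 43.6%, and in the bottom tercile (up to 5.52) they held 46.0% and 16.0%. SOX2 2 h lists held 24.4% and 48.1% of the top and 11.8% and 30.3% of the bottom tercile. Regions with SOX2 in both 0 h lists (451) kept NANOG at 2 h in 65.6% and 34.1% of cases, and those with SOX2 in neither (217) in 50.2% and 24.0%. The SOX2-bound regions also had the higher NANOG fold at 0 h (median 6.71 against 5.48). Those without SOX2 held homeodomain letters in 41.5% (35.1 to 48.1) and GATA letters in 27.6% (22.1 to 34.0) of windows, and those with SOX2 in 25.5% (21.7 to 29.7) and 16.6% (13.5 to 20.3). SOX letters went the other way, at 49.8% (43.2 to 56.4) without and 59.4% (54.8 to 63.9) with SOX2. Position made little difference: of 123 regions within 5 kb of a TSS the NANOG 2 h lists held 65.0% and 29.3%, and of 737 farther away 58.8% and 29.4%.

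GATA6 was rarely listed later, which was largely set by choosing regions without a GATA6 2 h peak. Before induction each GATA6 0 h list held 0 of 860 unreached regions (a share of up to 0.445% by the Wilson interval). Of all NANOG 0 h regions these lists held 0.0665% and 0.359%, and 0.0266% had a peak of both. The lists named for 4 h held 15 (1.74%) and 31 (3.60%), those for 8 h 2 (0.233%) and 1 (0.116%), and those for 48 h 2 (0.233%) and 1 (0.116%). The 4 h lists lay above the later ones, and the 8 h and 48 h values were equal. The slope of -1.25 percentage points per time point did not pass (exact permutation test over 6 lists, p = 0.111, adjusted p = 0.125). With times taken from the record instead of the list name, the slope was 0 (exact permutation p = 1). With each list reduced to its strongest 5933 peaks it turned to 0.09 (exact permutation p = 0.133), since 0 unreached regions then remained at 4 h and 8 h. The slope passed without NANOG 0 h replicate 1 (-1.28), GATA6 2 h replicate 1 (-5.25) or GATA6 2 h replicate 2 (-1.86). Both lists agreed at 2 regions at 4 h, 0 at 8 h and 1 at 48 h, beside 58.3%, 30.4% and 3.9% of all NANOG 0 h regions. In all, 46 unreached regions (5.35%) met a GATA6 peak of any later list, and 814 met none. Such a peak was met by 30.2% of regions reached in 1 list and by 88.0% of reached regions. Of the 44 with a 4 h peak, 13 held GATA letters (29.5%, 18.2 to 44.2), against 20.8% (18.1 to 23.7) of the 814.

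The regions held by both lists named for 4 h were named after their values were seen. At chr9:15023125-15023543, in an intron of Panx1, a channel gene, GATA6 stood at 6.39 and 4.62, and the nearest GATA6 2 h peak was 174 bp away. At chr1:167289883-167290125, 4728 bp from the start of the uridine kinase gene Uck2, GATA6 stood at 3.08 and 5.70, and a GATA6 2 h peak lay 31 bp away. The one region with GATA6 in both 48 h lists (6.38 and 8.04) lies at chr10:88349907-88350415 in an intron of Dram1, a gene of autophagy, 27 bp from a GATA6 2 h peak. SOX17 stood there at 30.9 and 27.5, the highest mean among unreached regions, and GATA4 at 4.59 in 1 list. Each of these 3 regions was thus close to a GATA6 2 h peak that did not overlap it.

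GATA4 at 24 h held 3 (0.349%) and 2 (0.233%) unreached regions, and SOX17 held 42 (4.88%) and 67 (7.79%). Both lists agreed at 1 region for GATA4 and 36 for SOX17 (4.19%), beside 4.32% and 30.8% of all NANOG 0 h regions. Of the 36, 32 (88.9%) had SOX2 in both 0 h lists and 30 had no GATA6 peak in any list. The rule itself leaves no GATA6 2 h peak at any unreached region. A GATA6 peak of a later list was met by 46 of all 860 unreached regions (5.35%). Among the 36, 6 (16.7%) met a GATA6 peak, so they lacked GATA6 less often than the whole set. A SOX2 peak of either list was present at 22 of the 36 (61.1%) at 4 h and at 4 of the 36 (11.1%) at 8 h. Over all 860 unreached regions these shares were 19.2% and 1.40%. Among unreached regions with SOX2 in both 0 h lists, SOX17 held 8.20% (6.01 to 11.1) and 12.2% (9.49 to 15.5), and among those with SOX2 in neither, 0.922% (0.253 to 3.30) and 2.30% (0.988 to 5.28). Reached regions had the same order, from 44.0% and 52.9% down to 12.4% and 20.7%. SOX letters were in 21 of the 36 windows (58.3%, 42.2 to 72.9) and in 54.4% of the 787 without SOX17, and GATA letters in 7.

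**Figure D5:**
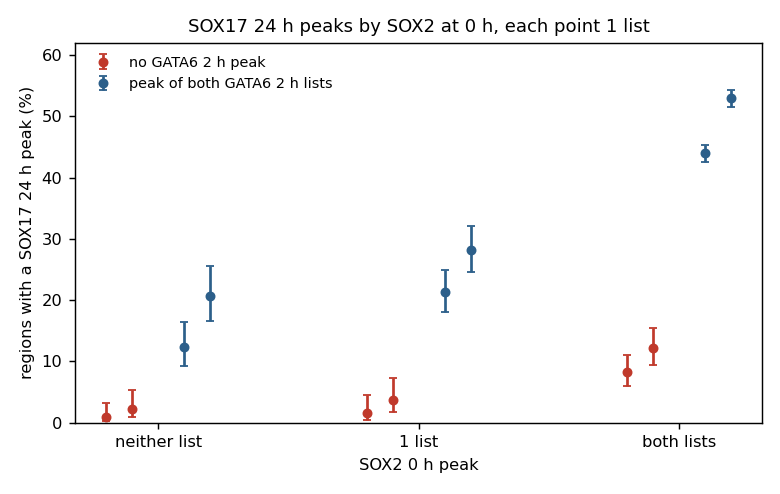
Percent of unreached (red) and reached (blue) regions with a SOX17 24 h peak, by whether neither, 1 or both SOX2 0 h lists held a peak. Each point is 1 SOX17 list and bars are 95% Wilson intervals over regions. With SOX2 in both lists, unreached regions stand at 8.20% and 12.2% and reached regions at 44.0% and 52.9%.

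After the Dram1 site, the strongest SOX17 peaks at unreached regions were at chr2:106750916-106751155 in an intron of Mpped2, a phosphoesterase gene, with folds of 25.4 and 30.4. SOX2 had been at this Mpped2 site in all 6 lists from 0 to 4 h (13.1 and 15.2, 6.72 and 13.6, then 9.25 and 13.5) and in neither 8 h list. At chr1:14733984-14734446, 20295 bp from the start of Msc, a bHLH repressor gene, SOX17 stood at 10.9 and 20.2 although no SOX2 0 h peak was listed. At chr15:93189294-93189575, nearest to Gxylt1, SOX17 stood at 11.9 and 18.4, SOX2 was listed at 11.3 and 11.95 at 0 h and still at 10.1 and 4.55 at 8 h, and the window held 4 SOX matches and no GATA letters. Sites nearest to Map1s (8.55 and 21.7) and Commd9 (13.7 and 15.8) complete the 6.

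No unreached region held SOX2 in all 8 lists, against 7 of 880 regions reached in 1 list (0.795%) and 29.8% of reached regions. In the lists of 0, 2 and 4 h, 28 unreached regions did. That set was named after its values were seen and was not compared with the other classes. The strongest, near the olfactory receptor gene Olfr697 (chr7:106745495-106746179), went from 24.8 and 31.3 at 0 h to 4.84 and 14.8 at 2 h, 8.59 and 7.10 at 4 h, and 5.43 in 1 list at 8 h. A site in an intron of Glis3, a zinc finger factor gene, went from 18.4 and 21.6 to 8.29 and 16.0 and to 11.9 and 5.68, and was in neither 8 h list.

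NANOG peaks of both 4 h lists remained at 4 unreached regions, nearest to Taf1a, Tacc1, Orc5 and Def8. The folds were 6.81 and 5.13 at Taf1a, 6.32 and 5.08 at Tacc1 and 4.99 and 4.30 at Orc5. The Def8 region (chr8:123433743-123434096) was also the one unreached region with NANOG in both 8 h lists and with GATA4 in both lists. Its fold was between 1.24 and 1.54 in all 8 NANOG lists and 1.84 and 1.56 for GATA4, the lowest mean NANOG fold of the set (1.26, where the next lowest was 3.35). Without it, none of the 860 held both NANOG 8 h or both GATA4 lists.

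By the end of the series most unreached sites were empty in these lists. In 606 (70.5%) no peak of any factor was listed at or after 4 h, against 35.2% of regions reached in 1 list and 3.38% of reached regions. In 187 (21.7%) none was listed after 0 h, which the rule sets to 0 in the other classes, since they hold a GATA6 2 h peak. By the same rule only unreached regions can lack every other list, and at 78 (9.07%) no list other than the 2 NANOG 0 h lists held a peak.

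Unreached regions were spread thinly over genes. Assigning each region to the nearest protein-coding TSS within 50 kb placed 535 of them at 513 genes, of which 493 had 1, 18 had 2 and 2 had 3 (Hhla1 and Utrn). For 311 genes these were the only NANOG 0 h regions, and 202 genes had at least 1 other. Across all genes 10.6% of assigned NANOG 0 h regions were unreached, a share that the rule itself sets.

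In the list of pluripotency factors, 2 of 53 regions were unreached (3.77%, 1.04 to 12.8), both near Nr5a2, an orphan nuclear receptor that acts on the regulatory DNA of Pou5f1. Its other 2 NANOG regions were reached. The unreached ones lie 42716 bp and 20184 bp upstream, at chr1:137003057-137003369 (NANOG 0 h folds 6.31 and 6.91) and chr1:136980520-136980914 (4.10 and 6.71). Each had NANOG in 1 of the 2 h lists and SOX2 in 1 of the 0 h and 1 of the 2 h lists. All regions assigned to Nanog, Sox2, Esrrb, Klf2, Klf5, Tbx3 and Prdm14 were reached.

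In the list of primitive endoderm genes, 4 of 10 regions were unreached (40%, 16.8 to 68.7), and 6 were reached. The interval is wide and includes regions of only 7 genes. The region 44125 bp downstream of the start of Pdgfra, the receptor that marks the lineage, at chr5:75205761-75206187, had NANOG at 4.73 and 9.64 at 0 h and at 4.32 in 1 of the 2 h lists. SOX2 stood there at 12.7 and 13.3, then 5.51 and 8.24, then 4.61 and 4.96 at 4 h, and SOX17 at 6.24 and 4.21 at 24 h. In an intron of Hnf4a, a nuclear receptor of visceral endoderm, chr2:163511078-163511459 had NANOG at 6.27 and 7.57 and SOX2 at 4.68 and 5.37 at 0 h, and after that only SOX2 at 4.40 in 1 of the 2 h lists. In an intron of the laminin gene Lamb1, chr12:31281028-31281423 had NANOG at 7.36 and 5.99 and SOX2 at 8.48 and 8.89, and no list later than 0 h held a peak. Near Bmp2, which encodes a BMP ligand and also stands in the BMP list (1 of 9 regions unreached), chr2:133549395-133549665 had NANOG at 5.52 and 3.68 at 0 h.

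Of the signalling lists, FGF and ERK had 2 of 21 regions unreached, one in an intron of Spry4, a feedback inhibitor of the pathway, and one 36068 bp from Fgfr1, a receptor of FGF4. The strong region nearest to Fgfr1 named above lies 50981 bp away, just past the limit for assignment. The WNT list had 1 of 16, near the ligand gene Wnt8a, and the Nodal and TGF-beta list 0 of 9. Chromatin regulators had 2 of 33, near Tet2 (a DNA demethylase) and in an intron of Jarid2 (a PRC2 cofactor). There were 0 of 12 for formative and primed epiblast genes, 0 of 8 for trophectoderm genes and 0 of 14 for germ layer regulators. The lists are short, and their intervals other than that of the primitive endoderm list take in the 10.6% of all genes.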

How the data were processed

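CUT&RUN peaks were analysed in 30 lists of 15 groups, and 27 of the 57 samples of the series were not analysed here. The authors aligned reads to mm10 (GRCm38) with Bowtie2, used SAMtools and Picard, and called MACS narrow peaks per library against a rabbit anti-rabbit control. The deposited columns hold a score (not used), fold enrichment, a −log10 p-value and a −log10 q-value. Lists were reduced by the deposited −log10 q. Here overlapping NANOG 0 h peaks were merged, held regions counted per list, and shares compared over lists by exact permutation tests, with 7 tests adjusted by Benjamini-Hochberg at 0.05 (Python 3.11.15, numpy 2.4.6, scipy 1.17.1). Regions were annotated with GENCODE, assigned to a protein-coding TSS within 50 kb, and searched for 14 motifs within 100 bp of the summit. The overlap step was checked on simulated lists and the tests on random values. Those values had neither the unequal list lengths nor the shared regions of these data. Members and gene lists were chosen with earlier results of these data known. Named regions were the 8 with the highest mean NANOG 0 h fold (1 is not reported here), those held by both lists of a late factor (up to 6, by fold), and unreached regions of the gene lists.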

Additional observations from a re-analysis of the deposited data

How the results depend on the processing

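In all, 159 alternatives were computed, and 123 were counted as the same as the main result. For a test this means the same direction and the same side of the threshold, whether or not the main result passed. The untested number of regions had to stay within a set ratio of the main one. Untested shares had to stay within the main Wilson interval. Leaving out 1 list moved the number of unreached regions to between 1019 and 4086. Without a NANOG 0 h list, the total number of regions changed as well. The NANOG slope ranged from -27.4 to -10.00 points, the SOX2 F from 10.6 to 65.8 and the GATA6 slope from -5.25 to -0.67. The differences from reached regions ranged from -43.6 to -31.8 (NANOG), -56.5 to -40.1 (SOX2), -51.4 to -36.8 (GATA6) and -28.8 to -17.3 (GATA4 and SOX17). The share within 5 kb of a TSS ranged from 15.6% to 18.7% and that with GATA letters from 21.2% to 26.5%. At equal list length the NANOG slope turned to 0.058 and the GATA6 slope to 0.087; with 2 and 4 h lists alone at equal length, chosen after seeing the data, the NANOG slope was -12.6 (exact permutation p = 0.333, where 6 arrangements exist). The SOX2 F among 2 to 8 h lists, also chosen after seeing the data, was 4.18. With a −log10 q of at least 5 for the choosing peaks, the GATA6 slope was -2.81 (exact permutation p = 0.0222). The NANOG slope lost its call without a 4 h list (exact permutation p = 0.0667) or an 8 h list (p = 0.133 in the same exact permutation test). The share near a TSS was 2.56% within 1 kb of a protein-coding TSS and 24.0% within 5 kb of the TSS of any annotated gene. GATA letters were in 38.1% of whole regions. Over regions, same-numbered lists deviated together with r from -0.10 to 0.02 over 12 pairs of groups. Such an r cannot show a shift shared by whole lists, so pairing by replicate number was not settled. With the replicate block the NANOG slope was -22.1 (exact permutation p = 0.0556), the SOX2 F 22.6 (p = 0.0417) and the GATA6 slope -1.25 (p = 0.222). The causes of these shifts were not tested, except that fewer lists or arrangements raise the smallest possible p.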
